A study of Mus musculus with 37 samples.

Results

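MYC and 8 genes of nucleolar growth were followed in splenocytes that had been exposed to macrophage-like cells or to their medium. The 9 members were picked by gene ID from the 60708 human Ensembl IDs of the count table, of which 22657 had a count in any library. They were MYC (ENSG00000136997.21), NCL (ENSG00000115053.17), NPM1 (ENSG00000181163.14), FBL (ENSG00000105202.9), NOP56 (ENSG00000101361.17), NOP58 (ENSG00000055044.11), DKC1 (ENSG00000130826.18), NOLC1 (ENSG00000166197.17) and ODC1 (ENSG00000115758.13). The reads were mouse and had been aligned to a human genome, so each symbol stands for the mouse reads that matched the human gene. The 8 symbols after MYC passed the filter on low counts, as did 5193 IDs in all, and MYC did not.

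MYC is a transcription factor that drives cell growth, and ribosome production in the nucleolus is among its best known outputs. In resting lymphocytes the nucleolus is small, and it enlarges when the cells are activated and start to grow. NCL, NPM1 and NOLC1 are abundant nucleolar proteins, FBL, NOP56 and NOP58 are core proteins of the particles that methylate ribosomal RNA, DKC1 is the enzyme that converts uridine to pseudouridine in ribosomal RNA, and ODC1 makes putrescine in the first step of polyamine synthesis. ODC1 is a long-known MYC target.

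The 37 libraries came from splenocytes of wild-type FVB mice. The partner cells were RAW264.7, a macrophage-like line of mouse origin, grown beforehand for 72 h at 21% oxygen (normoxia) or 1% oxygen (hypoxia). SPP1, or osteopontin, a soluble ligand of integrins and CD44, was either added to that culture or left out. Splenocytes then spent 48 h with the medium of these cultures (medium, 11 libraries), with the RAW cells (cells, 12) or with the RAW cells after a media wash (washed, 12). Each mode held the 4 combinations of oxygen and SPP1 with 3 libraries each, except that medium normoxia no-SPP1 had 2 libraries, replicates 2 and 3. The 13th group was 2 libraries of naive splenocytes. The labels list brefeldin A, which blocks protein export, for every library, naive ones included. The oxygen label describes the earlier RAW culture, not a hypoxic culture of the splenocytes. Mouse age and number, and whether naive cells were kept in culture, are not given in the sources used here. In the comparisons with naive, an effect of the exposure and one of 48 h in culture therefore cannot be told apart. The libraries were of bulk RNA, so a change of cell makeup, including RAW cells carried over, and a change of RNA per cell cannot be told apart in any value below. No marker list could be checked here because the table holds IDs without names.

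Total counts ran from 631574, in naive replicate 2, to 1337314 per library, with a median of 1063211. Levels are CPM, the usual scale of a count against its library's size, with sizes adjusted by TMM, a method that balances libraries on the bulk of their genes. Along the main axes of variation some libraries stood apart from the rest. On the second principal component these were replicate 1 of washed hypoxia SPP1, replicates 1 and 2 of washed normoxia SPP1 and replicate 2 of cells hypoxia no-SPP1. On the first component, replicate 1 of medium hypoxia no-SPP1 and replicate 3 of medium normoxia no-SPP1 lay away from the other 9 medium libraries. Their values are named below where they touch a result.

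MYC itself was poorly captured. It had 20 counts over all 37 libraries, a mean of 0.541 per library, with 24 libraries at 0 and none above 3 counts. Summed by mode, MYC had 7 counts in medium, 6 in cells, 5 in washed and 2 in naive. As raw CPM these were 0.591 in medium (exact Poisson 95% interval 0.237 to 1.22), 0.433 in cells (0.159 to 0.943), 0.397 in washed (0.129 to 0.927) and 1.25 in naive (0.151 to 4.52). These intervals cover counting error only and they overlap, and 3 counts correspond to between 2.01 and 4.97 CPM in a library. A difference in MYC was therefore not detectable with these counts. Depth, a low level of MYC and loss of its mouse reads on the human gene cannot be told apart here.

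The other 8 members were captured at very different depth. NCL had a mean of 1380 counts per library, NPM1 604 and ODC1 326. DKC1 had a mean of 82.1 counts, NOP58 57.4, FBL 44.1, NOP56 34.2 and NOLC1 28.4, so counting error is wide for the last of these. How well the mouse reads matched each human gene is not known, so the levels are not compared between genes. NPM1 has many near-identical processed copies in mammalian genomes, and how reads that match several places were counted is not given in the sources used here, so the value of NPM1 is uncertain in that respect. Together the 9 members took 0.373% ± 0.096 of all counts in the 11 medium libraries (mean ± SD) and 0.194% ± 0.0371 in the 12 cells libraries. Their share was 0.176% ± 0.0314 in the 12 washed libraries and 0.104% ± 0.0204 in the 2 naive ones. NCL had more of these counts than the other members together.

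For 6 of the 9 members a RefSeq promoter window of the mouse gene (build GRCm38.p6) was at hand. The 250 bases before the start of Ncl, Nop56, Nop58, Dkc1, Nolc1 and Odc1 were searched for the E-box CACGTG, the best known binding motif of MYC, which reads the same on both strands, and for the GC box GGGCGG, which was read on both strands and so also as CCGCCC. The E-box letters were in 0 of the 6 windows and in 6.02% of all 32851 mouse windows. The GC box was in 5 of the 6 windows, Dkc1 being without it, and in 32.7% of all windows. A match or its lack describes these letters in this window and says nothing about the binding of a factor. The windows of Nop58 and Odc1 are shown because these genes had the clearest separations below, between modes for Nop58 and between oxygen levels for Odc1. Both are on the plus strand, with Nop58 at chr1:59684756-59685005 and Odc1 at chr12:17544623-17544872, and capitals mark GC boxes.
Nop58: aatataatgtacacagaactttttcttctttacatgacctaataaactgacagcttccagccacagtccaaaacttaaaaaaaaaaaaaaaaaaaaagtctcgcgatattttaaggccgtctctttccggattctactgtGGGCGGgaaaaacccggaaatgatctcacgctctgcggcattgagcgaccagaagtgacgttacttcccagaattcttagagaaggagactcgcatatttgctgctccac
Odc1: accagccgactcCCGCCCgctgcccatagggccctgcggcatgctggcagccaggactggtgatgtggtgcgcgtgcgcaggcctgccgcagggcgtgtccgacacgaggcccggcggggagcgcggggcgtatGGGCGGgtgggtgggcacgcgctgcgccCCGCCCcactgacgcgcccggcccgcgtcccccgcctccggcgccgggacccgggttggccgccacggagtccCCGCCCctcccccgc

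The question asked first was whether these genes differed in the exposed splenocytes from their level in naive ones. All 8 tested members differed among the 13 groups in edgeR's quasi-likelihood test (Benjamini-Hochberg adjusted p 4.36e-07 to 0.00255), where 53.6% of all tested IDs were called, that is had an adjusted p under 0.05. After exposure to RAW medium, 8 of 8 members rose, where 17.1% of all tested IDs were called higher. The median log2 fold change of the members was 1.97, against 0.11 over all tested IDs. The smallest was NOP56 and the largest ODC1.

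ODC1 had 98.6 and 72.9 CPM in the naive libraries. In the medium libraries it had 79.4, 614 and 388 CPM for hypoxia no-SPP1, 766, 656 and 593 for hypoxia SPP1, 548 and 460 for normoxia no-SPP1 and 451, 447 and 705 for normoxia SPP1. Thus 10 of the 11 medium libraries were at least 388 CPM, and medium hypoxia no-SPP1 replicate 1 alone lay between the naive values. The log2 fold change was 2.55 (SE 0.475, edgeR adjusted p 8.85e-05).

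NCL, the major nucleolar RNA-binding protein, had 681 and 494 CPM in the naive libraries. The medium libraries had 930, 2700 and 1430 CPM for hypoxia no-SPP1, 2770, 2470 and 2730 for hypoxia SPP1, 895 and 1490 for normoxia no-SPP1 and 1570, 1990 and 1890 for normoxia SPP1. Every medium library was above both naive ones, and the spread within medium was wide. NCL rose by a log2 fold change of 1.59 (SE 0.29, edgeR adjusted p 6.88e-05). NPM1, a chaperone of ribosome assembly, had 227 and 92.5 CPM in naive and 395 to 856 (median 668) in medium, without overlap, and rose by 2.00 on the log2 scale (SE 0.289, edgeR adjusted p 2.6e-06).

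The 3 members that are core proteins of the methylating particles were all higher in medium. NOP58 had 24.4 and 13 CPM in naive and 55.5 to 114 (median 90.8) in medium, with no overlap (log2 fold change 2.23, SE 0.376, edgeR adjusted p 2.41e-05). FBL, the methyltransferase of the particle, had 11.7 and 23.4 CPM in naive and 33.9 to 102 (median 65) in medium, again apart (log2 fold change 1.91, SE 0.506, adjusted p 0.00402). NOP56 had 30.3 and 9.12 CPM in naive and 14.8 to 98.4 (median 45.5) in medium, so its ranges overlapped (log2 fold change 1.32, SE 0.462, adjusted p 0.0267).

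DKC1 separated cleanly, with 24.4 and 20.8 CPM in naive and 82.7 to 145 (median 103) in medium (log2 fold change 2.23, SE 0.398, edgeR adjusted p 5.38e-05). NOLC1, a chaperone-like partner of these particles, had 15.6 and 7.81 CPM in naive and 17.4 to 72.8 (median 49.9) in medium (log2 fold change 1.94, SE 0.688, adjusted p 0.0283). The naive arm is small: without naive replicate 2 the log2 fold change of NOP56 was 0.72 (adjusted p 0.43) and that of NOLC1 1.54 (adjusted p 0.276), and without naive replicate 1 the adjusted p was 0.086 for FBL and 0.063 for NOLC1. NCL, NPM1, NOP58, DKC1 and ODC1 passed the test with either naive library left out, but the sizes moved. Without naive replicate 1 the log2 fold change was 2.87 for NPM1, 2.85 for NOP58, 2.62 for NOLC1 and 2.53 for NOP56, and without naive replicate 2 it was 1.48 for NPM1.

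**Figure D1:**
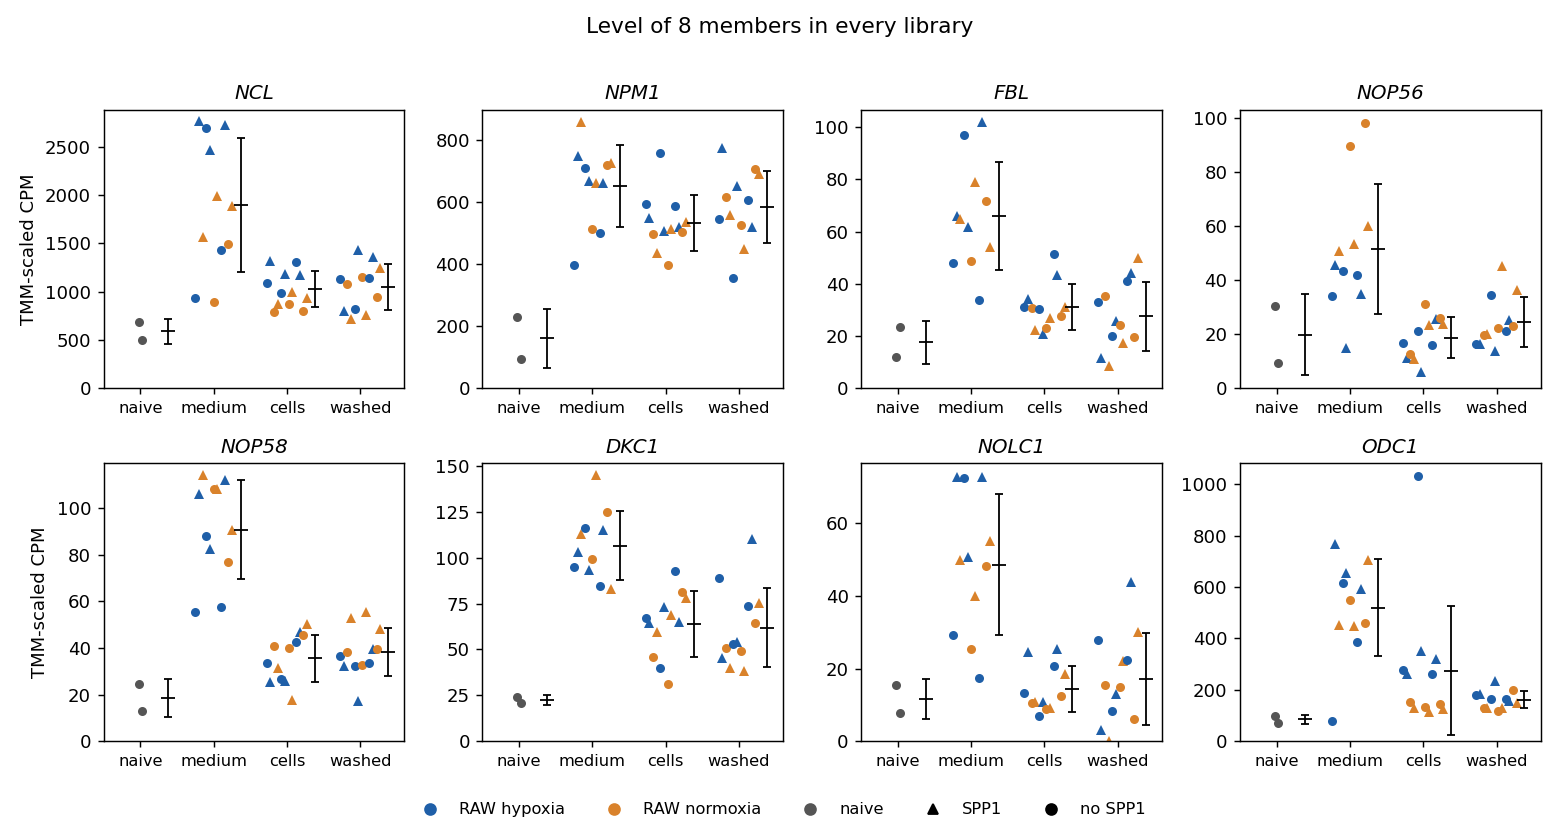
Level of 8 members in TMM-scaled CPM (vertical axis, linear, from 0) in each of the 37 libraries, grouped by mode of exposure. Blue and orange mark hypoxic and normoxic RAW cultures, triangles SPP1, circles no SPP1 and grey the naive libraries. The black bar beside each mode is the mean ± SD over its libraries, whatever their oxygen or SPP1. Medium libraries sit highest for most members, for NOP58 between 55.5 and 114 CPM with the cells libraries between 17.6 and 50.4.

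Co-culture with RAW cells gave smaller differences from naive splenocytes. In the cells mode 4 of 8 members rose, where 13.9% of all tested IDs were called higher, and the members' median log2 fold change was 0.86 against 0.04 over all tested IDs. NPM1 had 395 to 756 CPM (median 516) in cells and rose by 1.71 on the log2 scale (edgeR adjusted p 1.73e-05). DKC1 had 31 to 92.6 CPM (median 66) and rose by 1.48 (adjusted p 0.00345). ODC1 rose by 1.43 (adjusted p 0.0133) and NCL, at 785 to 1320 CPM (median 994), by 0.79 (adjusted p 0.0268). These 3 members lay above both naive libraries in every cells library, as did NPM1. The share of all tested IDs that lay apart from the naive libraries in this way was not counted. NOP58 with a log2 fold change of 0.89 (adjusted p 0.0586), FBL with 0.83 (adjusted p 0.213), NOLC1 with 0.23 (adjusted p 0.836) and NOP56 with -0.14 (adjusted p 0.849) did not pass. On library totals NCL had a log2 fold change of 0.57 and lost its call (adjusted p 0.104). NOP58 did pass, at 0.97 and an adjusted p of 0.0363, when the 4 libraries apart on the second component were left out.

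In the washed mode 4 of 8 members rose, where 17.5% of all tested IDs were called higher, with a median log2 fold change of 0.86 against 0.04. NPM1 had 353 to 773 CPM (median 581) and rose by 1.85 on the log2 scale (edgeR adjusted p 4.97e-06). DKC1 had 38.2 to 110 CPM (median 53.7) and rose by 1.43 (adjusted p 0.00374). NOP58 had 17.4 to 55.5 CPM (median 37.5) and rose by 0.97 (adjusted p 0.0342), while NCL had 712 to 1430 CPM (median 1100) and rose by 0.83 (adjusted p 0.0172). NOP58 did not pass under RLE scaling, on library totals, without the filter, with washed and naive fitted alone or in DESeq2, with adjusted p from 0.0545 in DESeq2 to 0.175 on library totals, and NCL had an adjusted p of 0.139 on library totals. ODC1, at 118 to 233 CPM (median 160), was above both naive libraries in all 12 washed libraries but did not pass (log2 fold change 0.90, adjusted p 0.0988). It did pass with every ID kept in the test (1.03, adjusted p 0.0248), with washed and naive libraries fitted alone (0.87, adjusted p 0.0331) and with the 4 libraries set aside (0.98, adjusted p 0.0334). FBL, with a log2 fold change of 1.06 and an adjusted p of 0.0418, joined the calls in that last fit.
Both comparisons rest on 2 naive libraries, and a fit that keeps only naive replicate 1 measures the naive level less surely. In that fit the log2 fold change in cells was 1.21 for NPM1, 1.38 for DKC1, 1.23 for ODC1 and 0.57 for NCL. In washed it was 1.37 for NPM1, 1.35 for DKC1, 0.63 for NCL and 0.63 for NOP58. Without naive replicate 1 the log2 fold change of NPM1 was 2.60 in cells and 2.74 in washed, and that of NOP58 in washed was 1.61. The RAW medium, cells and washed comparisons share the same 2 naive libraries, so their values are given side by side and are not independent.

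**Figure D2:**
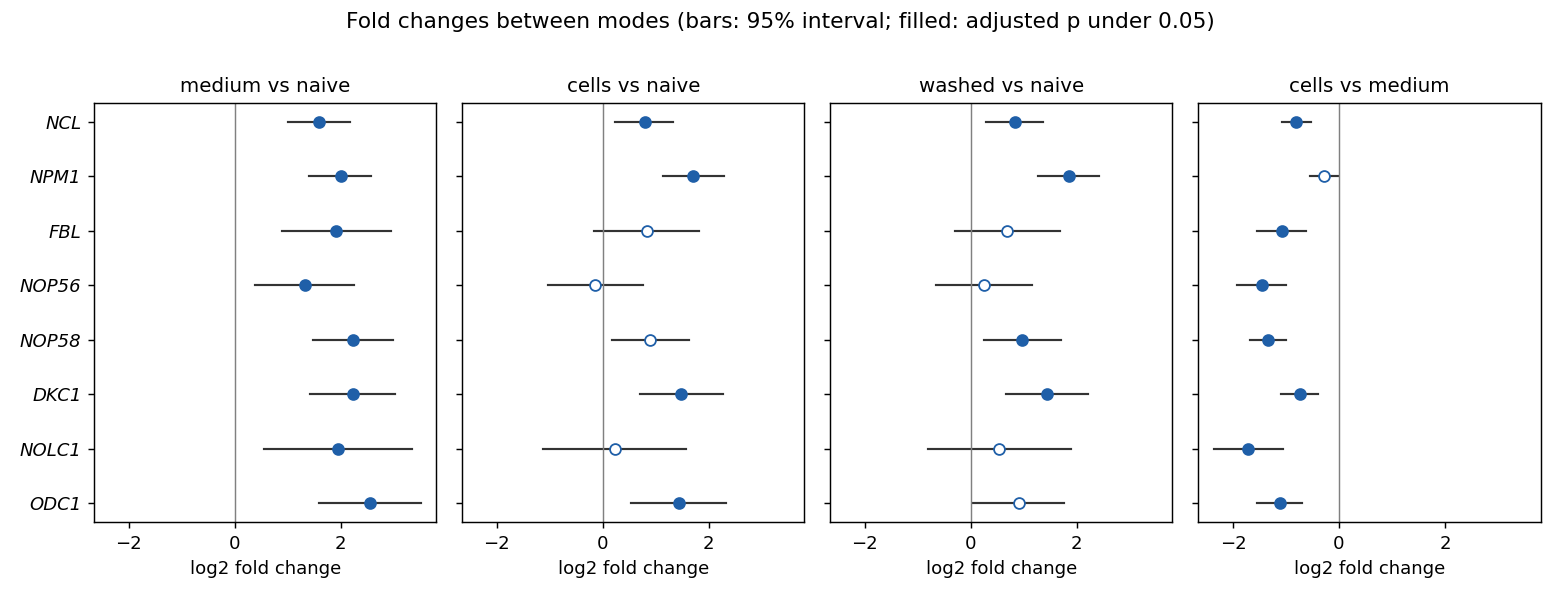
Log2 fold change of each member (horizontal axis) in 4 comparisons between modes, from the edgeR model of all 37 libraries. Bars are 95% intervals and filled points have an adjusted p under 0.05. All 8 points are filled for medium against naive and 4 for each co-culture mode against naive, and 7 lie to the left of 0 and filled for cells against medium.

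The modes were next compared with each other, which sets RAW cells, unwashed or washed, against RAW medium alone. In cells, 7 of 8 members were lower than in medium, where 25.3% of all tested IDs were called lower. The members' median log2 fold change was -1.10 against -0.02 over all tested IDs. NOP58 was the member whose ranges did not overlap. It had 33.6, 26.9 and 42.4 CPM in cells hypoxia no-SPP1, 25.5, 25.7 and 46.7 in cells hypoxia SPP1, 41, 40 and 45.4 in cells normoxia no-SPP1 and 31.6, 17.6 and 50.4 in cells normoxia SPP1. In medium it had 55.5, 87.9 and 57.4 CPM for hypoxia no-SPP1, 106, 82.3 and 112 for hypoxia SPP1, 108 and 76.7 for normoxia no-SPP1 and 114, 108 and 90.8 for normoxia SPP1. Its log2 fold change was -1.34 (SE 0.168, edgeR adjusted p 4.89e-08).

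The largest fitted difference from medium to cells was that of NOLC1, which had 17.4 to 72.8 CPM in medium and 7.03 to 25.4 in cells (log2 fold change -1.71, SE 0.321, edgeR adjusted p 3.85e-05). NOP56 differed by -1.46 (SE 0.229, adjusted p 2.59e-06) and FBL by -1.08 (SE 0.228, adjusted p 0.000181). With NOP58, all 3 members that belong to the methylating particles were thus lower in cells. NCL differed by -0.80 (SE 0.139, adjusted p 1.25e-05), DKC1 by -0.74 (SE 0.174, adjusted p 6e-04) and ODC1 by -1.12 (SE 0.21, adjusted p 3.74e-05). The ranges of these 6 members overlapped between the modes. For ODC1 the libraries that crossed were those set apart, medium hypoxia no-SPP1 replicate 1 at 79.4 CPM and cells hypoxia no-SPP1 replicate 2 at 1030.

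NPM1 differed least, with 395 to 856 CPM in medium and 395 to 756 in cells. Its log2 fold change of -0.28 (95% interval to -0.01) had an edgeR adjusted p of 0.0759. This depended on the processing, since NPM1 was called lower with RLE scaling (-0.35, adjusted p 0.0274), with library totals as the scale (-0.45, adjusted p 0.00291) and in DESeq2 (-0.35, adjusted p 0.0196).

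In washed, 7 of 8 members were lower than in medium, where 30.2% of all tested IDs were called lower, and the median log2 fold change was -1.15 against -0.03. ODC1 differed most, by -1.65 (SE 0.214, edgeR adjusted p 4.51e-08), with 118 to 233 CPM in washed. NOLC1 differed by -1.40, NOP58 by -1.26, FBL by -1.22, NOP56 by -1.07, DKC1 by -0.79 and NCL by -0.76. The washed libraries set apart held the low ends of FBL and NOLC1: washed normoxia SPP1 replicate 1 had 8.28 and 0 CPM, and washed hypoxia SPP1 replicate 1 had 11.3 and 3.22. With the 4 libraries set aside, 7 of 8 members were still called lower in washed than in medium. NPM1 again did not pass (-0.15, adjusted p 0.347), except on library totals (-0.44, adjusted p 0.00273).

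Between washed and cells 0 of 8 members were called by edgeR's quasi-likelihood test and 0 by DESeq2, where 7.24% of all tested IDs were called in either direction. At an unadjusted p under 0.05 there was 1 member, ODC1, which was lower in washed by a log2 fold change of -0.53 (95% interval -0.95 to -0.11, adjusted p 0.105). The 95% intervals of the 8 members reached from -0.95 for ODC1 to 0.99 for NOLC1, so the data do not bound the difference of those genes more closely. For NCL the interval was narrow, from -0.23 to 0.31 around 0.04.

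**Figure D3:**
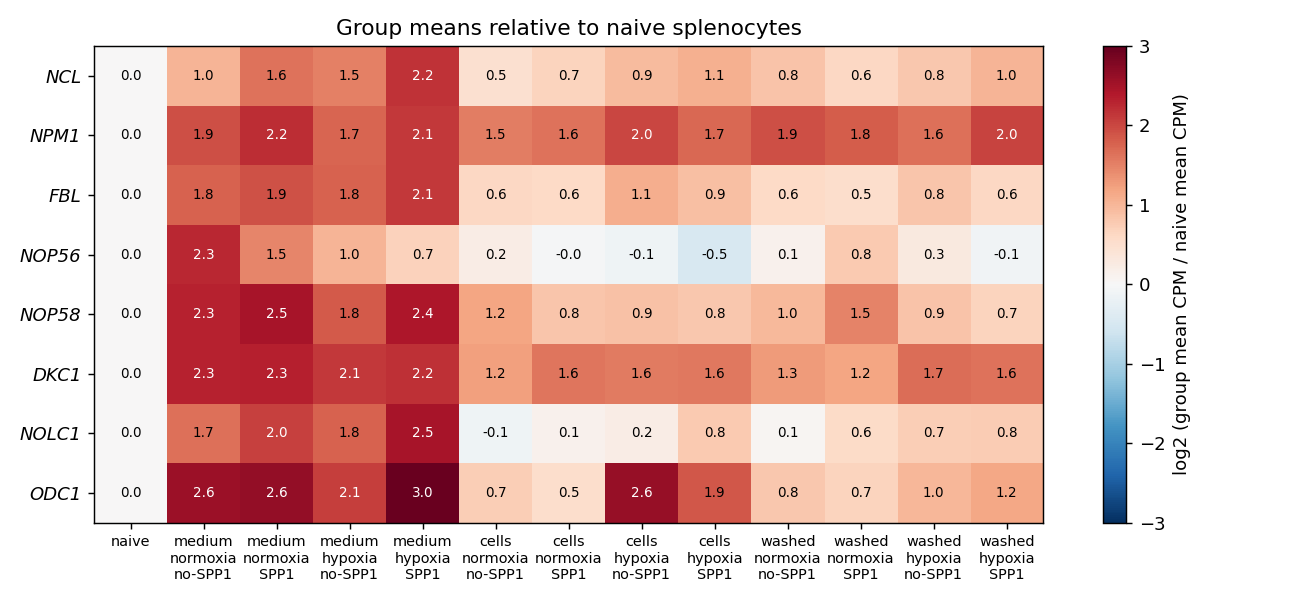
Log2 ratio of the mean CPM of each group to the naive mean, for 8 members (vertical) and 13 groups (horizontal), on a colour scale that is white at 0. Of the 96 ratios to naive, 91 are above 0. The ratios run from -0.48 for NOP56 in cells hypoxia SPP1 to 2.97 for ODC1 in medium hypoxia SPP1. All ratios of a member share its naive mean, so they are not independent of each other. The share of ratios above 0 over all tested IDs was not counted.

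Over the 13 groups the medium groups held the 4 highest means for FBL, NOP58, DKC1 and NOLC1. They held 3 of the 4 highest for NCL, NOP56 and ODC1 and 2 of 4 for NPM1. Naive was lowest for NCL, NPM1, FBL, NOP58, DKC1 and ODC1, second lowest for NOLC1 and 9th of 13 for NOP56. The highest group was medium hypoxia SPP1 for NCL (2660 ± 165 CPM), ODC1 (672 ± 87.7), FBL (76.7 ± 22.3) and NOLC1 (65.4 ± 12.6), all SD with n = 3. It was medium normoxia SPP1 for NPM1 (746 ± 101), DKC1 (114 ± 31.2) and NOP58 (104 ± 12.1), and medium normoxia no-SPP1 for NOP56 (94 ± 6.19, n = 2). Next groups in these orders mostly overlapped. At the top, NCL in medium hypoxia SPP1 and NOP56 in medium normoxia no-SPP1 lay wholly above the next group. For NCL, medium hypoxia no-SPP1, further down the order, still reached 2700 CPM, within the 2470 to 2770 CPM of medium hypoxia SPP1. At the bottom the naive libraries lay wholly below the next group for NCL, NPM1, DKC1 and ODC1. For ODC1, medium hypoxia no-SPP1 nevertheless went down to 79.4 CPM, between the naive values. The share of all tested IDs with such an order of groups, or with such gaps, was not counted.

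The oxygen level of the RAW culture moved 1 member. In the cells mode ODC1 was higher after hypoxia, with 278, 1030 and 263 CPM for hypoxia no-SPP1 and 263, 351 and 319 for hypoxia SPP1. After normoxia it had 152, 133 and 146 CPM without SPP1 and 128, 114 and 127 with it. All 6 hypoxia libraries lay above all 6 normoxia ones. The log2 fold change was 1.60 (SE 0.296, edgeR adjusted p 0.000647), and 1 of 8 members was called, where 2.72% of all tested IDs were called higher. Cells hypoxia no-SPP1 replicate 2, at 1030 CPM, is among the libraries set apart, and without it the log2 fold change was 1.12 (adjusted p 0.00901). NCL had 987 to 1320 CPM after hypoxia and 785 to 1000 after normoxia (log2 fold change 0.43, SE 0.191, adjusted p 0.227), and passed only where the cells libraries were fitted alone (0.46, adjusted p 0.0349).

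In the washed mode ODC1 had 182, 164 and 164 CPM for hypoxia no-SPP1 and 185, 233 and 156 for hypoxia SPP1, against 131, 118 and 200 for normoxia no-SPP1 and 128, 131 and 150 for normoxia SPP1. The ranges overlapped (log2 fold change 0.34, SE 0.295, edgeR adjusted p 0.798), and 0 of 8 members were called for hypoxia, where 0.0385% of all tested IDs were. None had an unadjusted p under 0.05, and DESeq2 called 0. In medium 0 of 8 were called by edgeR and 0 by DESeq2, where 0.077% of all tested IDs were, and 2 members had an unadjusted p under 0.05. NOP56 had 14.8 to 45.5 CPM after hypoxia and 50.7 to 98.4 after normoxia, without overlap (log2 fold change -1.01, SE 0.314, edgeR adjusted p 0.33). NCL had a log2 fold change of 0.52 (SE 0.204, edgeR adjusted p 0.501). ODC1 in medium differed by -0.08 (95% interval -0.69 to 0.53).

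Whether the hypoxia effect on ODC1 differed between modes was tested directly. The effect in cells exceeded that in medium by 1.68 on the log2 scale (95% interval 0.83 to 2.53, edgeR adjusted p 0.0583) and that in washed by 1.26 (95% interval 0.42 to 2.10, adjusted p 0.353). Neither passed, and 0 of 8 members were called in either test, where 0.481% and 0.173% of all tested IDs were. The first lay close to the threshold, and it passed in DESeq2 (1.66, adjusted p 0.0298). In edgeR it passed on library totals (1.69, adjusted p 0.0403) and with every ID kept in the test (1.68, adjusted p 0.000117). It also passed with the 2 medium libraries set apart left out (1.47, adjusted p 0.0438). It did not pass with RLE scaling, with the replicate number as a term or with only the libraries compared in the fit. Nor did it pass with the 4 libraries apart on the second component left out, or without cells hypoxia no-SPP1 replicate 2. With replicate 2 of medium hypoxia no-SPP1 left out it was 1.99 (adjusted p 0.00962). Other fits with 1 library left out went either way. The difference from washed passed in edgeR with every ID kept (1.25, adjusted p 0.0308) and in no other alternative.

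**Figure D4:**
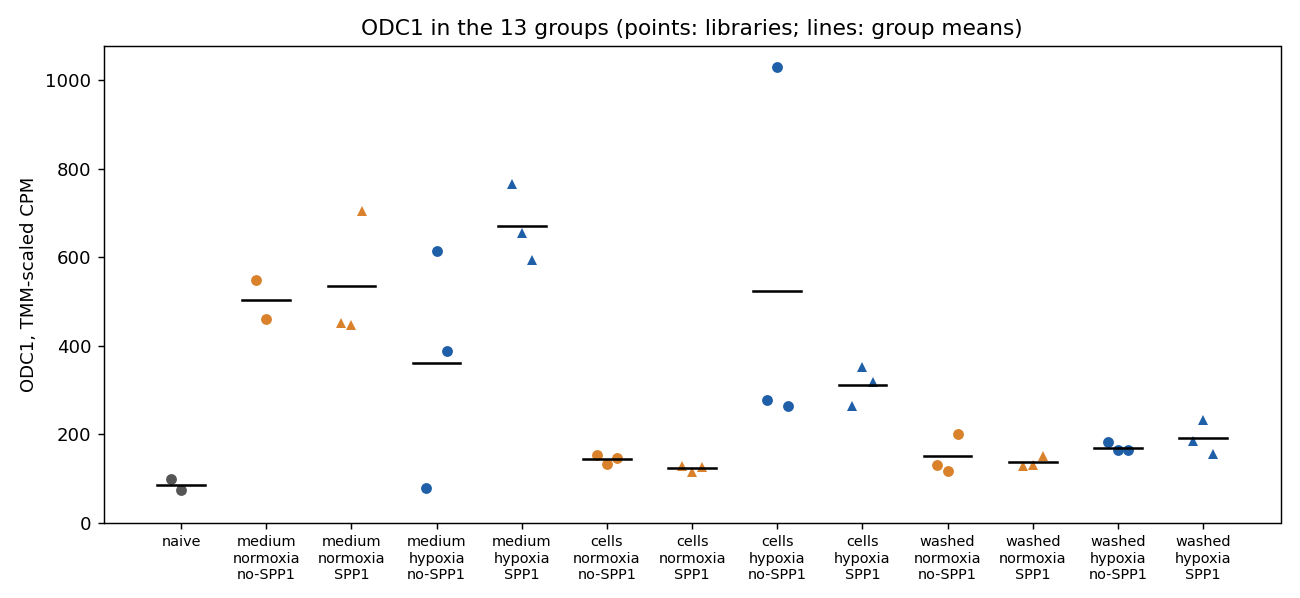
ODC1 in TMM-scaled CPM (vertical axis, from 0) in the 13 groups. Points are libraries (blue hypoxia, orange normoxia, grey naive, triangles SPP1), and black lines are group means. In cells, the 6 hypoxia libraries lie between 263 and 1030 CPM and the 6 normoxia libraries between 114 and 152.

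Added SPP1 moved no member past the threshold. In edgeR's quasi-likelihood test 0 of 8 members were called for SPP1 in medium, where 0.25% of all tested IDs were, 0 of 8 in cells, where 0% were, and 0 of 8 in washed, where 0.0193% were. DESeq2 likewise called 0 members in each mode. Over the 24 tests the 95% intervals reached from -1.19 to 1.45 on the log2 scale, so these data do not bound an SPP1 effect on the low members below about those sizes. At an unadjusted p under 0.05 there was 1 member in medium and none in cells or washed. That member was NCL, with 1570 to 2770 CPM with SPP1 and 895 to 2700 without (log2 fold change 0.63, SE 0.205, edgeR adjusted p 0.313). Both medium libraries set apart, at 930 and 1490 CPM, are in the no-SPP1 arm. With both left out the log2 fold change of NCL was 0.71 (adjusted p 0.977). Without medium hypoxia no-SPP1 replicate 2, at 2700 CPM, NCL passed (0.89, adjusted p 0.0184). The SPP1 effect was also compared between modes. For cells against medium 0 of 8 members and 0% of all tested IDs were called, and for cells against washed again 0 of 8 and 0%. ODC1 had a difference of -0.98 between cells and medium (95% interval -1.83 to -0.13, adjusted p 0.947), the only member with an unadjusted p under 0.05 in those tests.

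The levels of the 8 members were positively correlated across the 37 libraries, and less so within a mode. Over the 28 pairs of members, Pearson's r of log2 CPM over the 37 libraries ran from 0.28 to 0.88 with a median of 0.62, the highest being that of FBL and NOLC1. Over the 13 group means the median was 0.80. With the group means taken out it was 0.21, and 25 of the 28 pairs were positive. Within a mode the median was 0.48 over the 11 medium libraries, 0.26 over the 12 cells libraries and 0.07 over the 12 washed libraries. Positive pairs numbered 25 of 28 in medium, 18 in cells and 17 in washed, where NOP58 and ODC1 had the lowest r, -0.66. The r between pairs of other tested IDs was not computed. Libraries share depth and scaling between all genes, so these values are descriptions. Among 5185 other tested IDs, those most like the mean of the 8 members over 37 libraries were ENSG00000219487.2 (r 0.94) and ENSG00000004779.10 (r 0.92), for which no names were at hand.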

How the data were processed

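Splenocyte RNA from 37 libraries was measured with a QuantSeq 3′ mRNA kit, which reads transcript 3′ ends. The series text gives bbduk for trimming of adapters and polyA tails, STAR 2.7.10b for alignment to GRCh38 and featureCounts (Rsubread 2.0.3) for quantification. The authors deposited raw counts per human Ensembl gene ID, although the samples are mouse, so transcripts that differ between the species at their 3′ ends may be missing or undercounted. The annotation, the counting of multiply aligned reads and the use of the kit's molecular identifiers are not given in the sources used here, and PCR copies may be included. The labels ask for an RNA integrity above 7 and also quote a range that reaches below it.

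Analysis was done in edgeR 4.0.16 (R 4.3.3). After filterByExpr at a minimum count of 10, which left 5193 IDs, and TMM scaling, a single quasi-likelihood fit covered all 37 libraries with the 13 group means as its terms. P-values were adjusted by Benjamini-Hochberg over all tested IDs, and called means an adjusted p below 0.05. The replicate number was not a term. Contrasts between modes weighted the 4 groups of a mode equally, and oxygen and SPP1 effects were averaged over the other factor. Replicates are separate experiments per the series text, while the mice behind them are not given. Groups came from the treatment label and replicate numbers from the title. In 35 pairs of replicates counts differed by more than sampling noise. Correlations used log2 CPM with a prior count of 2.

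Total counts per library were 631574 to 1337314, which leaves members with few counts with wide counting error. On simulated counts for cells against medium, with 4843 IDs tested, the model recovered 96.8% of IDs changed 4-fold and 66.7% of those changed 2-fold.

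The 9 members and the lists were chosen with earlier results of these data known. All 9 members were described. The planned lists of pathway genes and of cell type markers were not run, because IDs were paired with names for the 9 members only and the reference used here is a mouse one, from which no human position could be taken. Promoter windows came from RefSeq (GRCm38.p6). IDs most like the members were those with the highest Pearson's r. Alternatives were RLE scaling, scaling by library totals, no filter, a fit of only the libraries compared, DESeq2 1.42.0, a replicate block, leaving out the libraries set apart and leaving out each library in turn.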

Additional observations from a re-analysis of the deposited data

Results flagged for a closer look

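In arms of 5 or 6 libraries, a library was singled out where its gap to the nearest other, divided by the range of the arm, passed Dixon's 95% critical value. Chance singles out about 1 arm in 20, and 7 of 96 arms passed, in members whose arms share libraries. ODC1 had 1030 CPM in cells hypoxia no-SPP1 replicate 2, with 351 the next highest value in the hypoxia arm of cells and 278 the next in its no-SPP1 arm. The same library had 756 CPM of NPM1 in the hypoxia arm of cells, where the next was 594. FBL had 51.2 CPM in cells hypoxia no-SPP1 replicate 3, with 31.2 the next in the no-SPP1 arm of cells. NOLC1 had 18.5 CPM in cells normoxia SPP1 replicate 3, with 12.5 the next in the normoxia arm. NOP56 had 34.4 CPM in washed hypoxia no-SPP1 replicate 2, with 22.8 the next in the no-SPP1 arm of washed. NOP58 was low in washed hypoxia SPP1 replicate 2, at 17.4 CPM, with 32.2 the next lowest in the hypoxia arm of washed. No cause was tested for any of these values.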

How the results depend on the processing

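Of 447 counts of called members recomputed under the alternatives, 430 stayed within 1.5 times the value reported and 17 moved. The 430 include counts of 0 that stayed at 0, and 305 of them came from leaving out 1 library. Of 798 recomputed fold changes of called members, 780 kept their call, 18 lost it and none changed sign. Scaling by library totals called 2 members for washed against naive, 1 for washed against cells and 1 for the difference of the hypoxia effect between cells and medium. With no filter, 1 member was called in each of the last pair and 1 for the hypoxia effect in cells against washed, and without the 2 medium libraries set apart 1 was called in each of the last pair. A fit of only the cells libraries called 2 for hypoxia, and DESeq2 called 1 for the difference of the hypoxia effect between cells and medium. The member gained was ODC1, apart from NCL for hypoxia in cells. With 1 library left out, the number called ran from 1 to 5 for cells against naive, from 1 to 4 for washed against naive, from 0 to 1 for the hypoxia effect in cells against medium and from 0 to 1 for SPP1 in medium, and from 6 to 8 for medium against naive. Without naive replicate 2 the log2 fold change in cells was 0.57 for NCL, 1.38 for DKC1 and 1.23 for ODC1. In washed it was 0.63 for NCL and 1.35 for DKC1. On library totals the median log2 fold change of all IDs in washed against medium was -0.32, and -0.03 with TMM, beside -1.42 and -1.15 for the members. Over all tested IDs the replicate numbers gave no clear pairing of the libraries. Same-numbered libraries of different groups had a median correlation of deviations of 0.01, and differently numbered ones 0. Of 37 libraries, 17 correlated best with their own number. The number expected by chance was not computed, and a pairing in single members was not tested. With a replicate block all 17 counts of called members stayed within 1.5 times, and NOP56 in medium against naive lost its call (1.16, edgeR adjusted p 0.0542), leaving 7 there. The causes of these shifts were not tested. Few counts limit what can be seen for MYC and the other low members.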
